A study of Mus musculus with 6 samples.

Results

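The zinc-dependent histone deacetylases described here are 10 genes, Hdac1 to Hdac8, Hdac10 and Hdac11, out of 17256 genes in an RNA-seq table of mouse antrum epithelium, which lines the lower stomach. They were taken by gene symbol, and the family was singled out with the difference of Hdac11 between the groups already known, so the differences of its members are given below as descriptions without a test. The study compared 3 libraries from C57BL/6 mice given PEEPA-P5 by gavage for 2 weeks with 3 libraries from C57BL/6 mice given vehicle for 2 weeks. Both groups had first received MNNG, an alkylating carcinogen, and Ranitine (spelled as in the labels) for 20 weeks, which induced atrophic gastritis, so no library comes from an untreated stomach. PEEPA-P5 is known here only by its code name. The labels give no age and do not say whether each library is 1 mouse, so p-values reflect variation among these libraries that may be technical.

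Histone deacetylases remove acetyl groups from lysines of histones and many other proteins, which on histones usually goes with more compact chromatin and less transcription. The zinc-dependent enzymes fall into class I (Hdac1, Hdac2, Hdac3 and Hdac8), which are mostly nuclear and, except Hdac8, work inside corepressor complexes; class IIa (Hdac4, Hdac5 and Hdac7), which shuttle between nucleus and cytoplasm and bind MEF2 transcription factors; class IIb (Hdac6 and Hdac10), which act largely on cytoplasmic substrates; and class IV, whose sole member is Hdac11. Hdac11 is a weak deacetylase but an efficient remover of long-chain fatty acyl groups from lysine. Hdac9, the remaining class IIa gene, is not among the 10 and had at most 11 counts in any library; it is named after its values were seen.

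Total counts ran from 16494792 to 16903545 in the PEEPA-P5 libraries and from 16388844 to 16833280 in the vehicle libraries. The antral hormone gene Gast was detected in every library, at 1460.5, 1004 and 48.0 CPM in PEEPA-P5 1, 2 and 3 and 1859, 1219 and 134.8 CPM in vehicle 1, 2 and 3. PEEPA-P5 3 stood apart from the other libraries, with the lowest summed levels of endothelial, fibroblast, smooth muscle, macrophage and enteroendocrine markers. Parietal and chief cell genes differed widely within both groups. The parietal gene Atp4a, for example, ran from 0.269 to 383.7 CPM in PEEPA-P5 libraries and from 365.6 to 3166 CPM in vehicle libraries.

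The promoters of Hdac11 and Hdac7 are shown first, because these 2 genes had the largest differences between the groups and because Hdac7 has several annotated starts. They come from RefSeq on GRCm38.p6, a later build than the mm9 named in the submitters' processing notes, and cover 250 bases before and 50 bases after a start, read 5′ to 3′. Capitals mark GGGCGG or its reverse complement CCGCCC, the GC box bound by Sp-family factors.
Hdac11, chr6:91156565-91156864, plus strand: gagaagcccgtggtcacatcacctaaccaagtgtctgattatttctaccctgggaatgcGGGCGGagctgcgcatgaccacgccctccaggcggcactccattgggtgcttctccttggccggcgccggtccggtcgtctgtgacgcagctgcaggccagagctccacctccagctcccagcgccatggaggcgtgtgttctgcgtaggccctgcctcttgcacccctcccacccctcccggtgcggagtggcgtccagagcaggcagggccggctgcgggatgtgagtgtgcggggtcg
Hdac7, a CpG-rich start, chr15:97831446-97831745, minus strand: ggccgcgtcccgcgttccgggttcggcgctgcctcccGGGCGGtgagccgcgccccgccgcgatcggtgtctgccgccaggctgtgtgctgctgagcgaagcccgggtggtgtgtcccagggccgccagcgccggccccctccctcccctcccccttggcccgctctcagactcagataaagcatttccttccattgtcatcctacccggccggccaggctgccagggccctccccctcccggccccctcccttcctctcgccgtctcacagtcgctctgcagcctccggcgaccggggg
Hdac7, a CpG-poor start, chr15:97814814-97815113, minus strand: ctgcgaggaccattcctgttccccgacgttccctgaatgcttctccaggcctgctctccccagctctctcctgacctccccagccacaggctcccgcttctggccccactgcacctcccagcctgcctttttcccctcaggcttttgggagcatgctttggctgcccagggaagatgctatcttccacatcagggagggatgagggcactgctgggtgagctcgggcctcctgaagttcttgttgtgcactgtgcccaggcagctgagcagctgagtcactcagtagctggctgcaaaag

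The Hdac11 promoter holds 22 CG dinucleotides in its 300 bases, against a median of 7 over 32841 RefSeq promoters of the same length. It has 1 GC box and 1 CCAAT box (CCAAT or ATTGG), and no TATAAA on either strand. Of the 4 annotated Hdac7 starts, those shown have 31 CG dinucleotides with 1 GC box and 5 CG dinucleotides with no GC box. The other Hdac7 starts have 35 and 6 CG dinucleotides and no GC box. Of all promoters, 35.7% hold a GC box, 37.4% a CCAAT box and 13.6% a TATAAA. Promoters were found for 7 of the 10 genes, and not for Hdac1, Hdac3 and Hdac10.

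The family spanned a wide range of levels, from Hdac1 at a median of 48.1 TPM to Hdac4 at 1.42 TPM over the 6 libraries. TPM is scaled to transcript length, so levels of different genes can be set side by side. After Hdac1 came Hdac3 at a median of 39.5 TPM, Hdac2 at 19.97 TPM, Hdac5 at 12.35 TPM, Hdac11 at 9.09 TPM, Hdac10 at 5.78 TPM, Hdac8 at 4.98 TPM, Hdac6 at 3.74 TPM and Hdac7 at 2.335 TPM. Of neighbours in this order, Hdac3 and Hdac2 had ranges that did not overlap, and all other neighbouring ranges overlapped over the 6 libraries. Within a library the order was steadier, each gene lying above the next in 5 or 6 of 6 libraries. Hdac11 lay above Hdac10 in 6 of 6 libraries and below Hdac5 in 5 of 6, the exception being vehicle 3, with 12.9 TPM for Hdac11 and 10.7 TPM for Hdac5. Class I genes made up most of the family's summed TPM, at 77.7% to 78.8% in PEEPA-P5 libraries and 66.9% to 73.8% in vehicle libraries. Hdac11 made up 4.91% to 5.45% of it in PEEPA-P5 libraries and 6.90% to 9.93% in vehicle libraries.

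**Figure D1:**
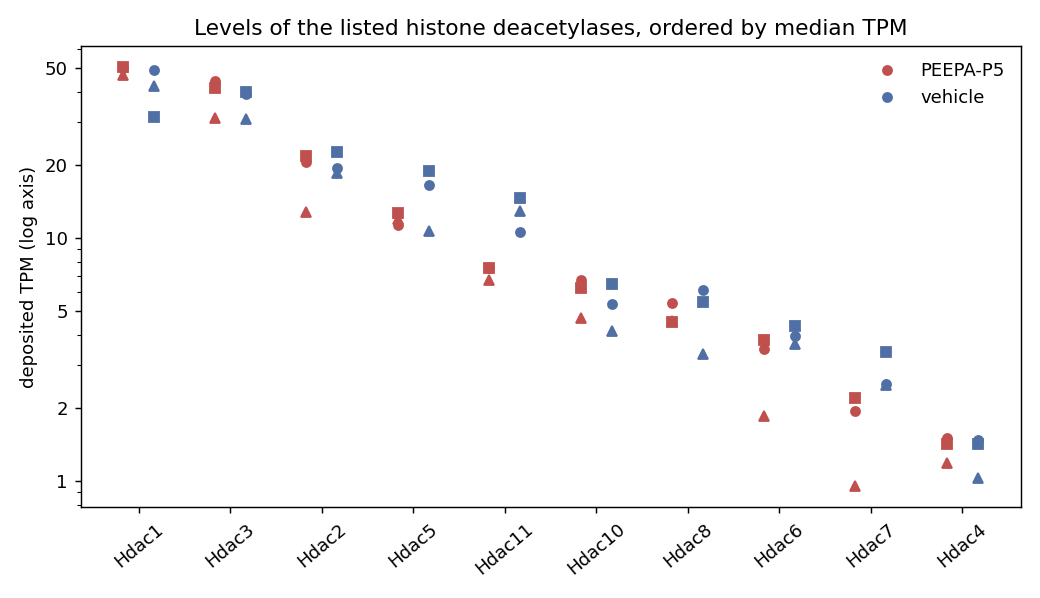
Deposited TPM (log axis) of the 10 histone deacetylases, ordered by their median, in PEEPA-P5 libraries (left of each gene) and vehicle libraries (right). Circles, squares and triangles are libraries 1, 2 and 3; Hdac1 and Hdac3 lie highest and Hdac4 lowest, and the Hdac11 points of the groups do not overlap.

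Counts scaled to library size (CPM, with TMM factors) were used to compare the groups. Of the 10 genes, all of which passed the expression filter, 5 had a log2 difference above 0 and 5 below 0, with a median of 0.02 against -0.00467 over all 13071 genes tested, of which 50.6% were below 0. None of the 13071 genes passed an adjusted p of 0.05 in edgeR's quasi-likelihood test in either direction (0% called), and 1576 of them, or 12.1%, had an unadjusted p under 0.05, 774 higher (5.92%) and 802 lower (6.14%). DESeq2 called 41 genes higher and 62 lower at an adjusted p of 0.05, and limma-voom called 0. The unadjusted count was 1008 without PEEPA-P5 1, 717 without vehicle 2 and 759 without vehicle 3, and with library totals in place of TMM factors the split was 313 higher and 1015 lower. The PEEPA-P5 libraries lay wholly below the vehicle libraries in Hdac6, Hdac7 and Hdac11, and wholly above them in Hdac1, all by CPM. By deposited TPM, Hdac7 and Hdac11 kept this separation and Hdac1 and Hdac6 overlapped. Groups were separate by CPM for 10.7% of all tested genes in the lower direction and 9.74% in the higher direction, 20.4% in all. As the family was chosen from this contrast, nothing is read from these counts.

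**Figure D2:**
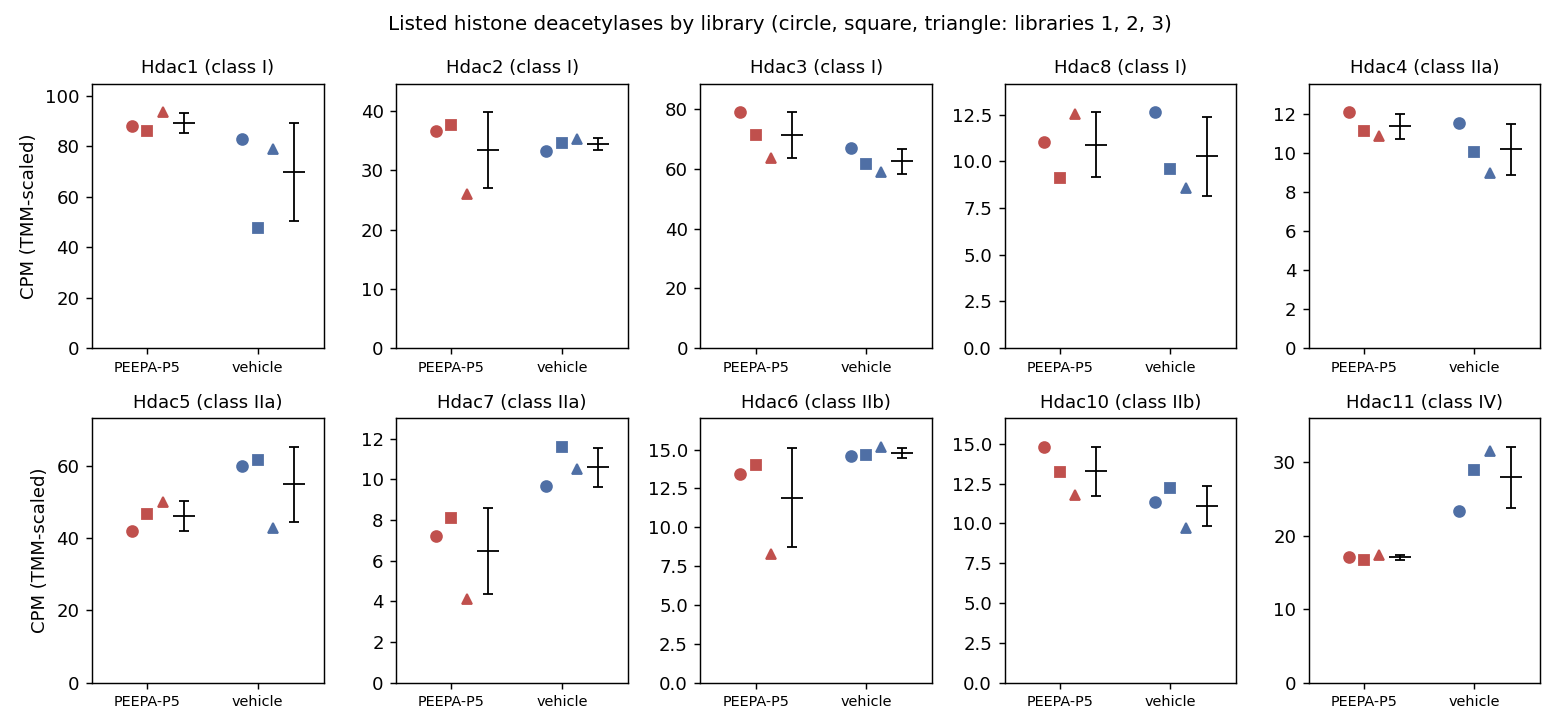
CPM of each histone deacetylase in the 3 PEEPA-P5 libraries (left) and the 3 vehicle libraries (right), with the group mean and SD as bars beside the points. Circles, squares and triangles are libraries 1, 2 and 3; the Hdac11 points with PEEPA-P5 lie close together below all vehicle points, and PEEPA-P5 3 is the lowest point for Hdac2, Hdac6 and Hdac7.

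Hdac11 (Entrez 232232), the class IV enzyme, was at 17.2, 16.7 and 17.4 CPM in PEEPA-P5 1, 2 and 3 and at 23.4, 28.9 and 31.6 CPM in vehicle 1, 2 and 3. Every PEEPA-P5 library lay below every vehicle library, and the PEEPA-P5 mean was 61.1% of the vehicle mean. The means were 17.1 ± 0.36 CPM under PEEPA-P5, against 27.97 ± 4.17 CPM under vehicle (SD, n = 3 each), or -0.71 as a log2 difference (standard error, SE, 0.14). In bulk tissue, fewer cells of a type that makes Hdac11 RNA and less RNA per cell cannot be told apart. The PEEPA-P5 libraries differed among themselves by less than counting alone would give, with an SD 0.35 times that expected from Poisson counting, whereas the vehicle SD was 3.25 times it. Over 16 other ways of processing or leaving out libraries, the log2 difference stayed between -0.82 and -0.62. The TPM values gave the same separation, at 7.52, 7.54 and 6.71 TPM with PEEPA-P5 and 10.6, 14.7 and 12.9 TPM with vehicle.

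Of the 11 listed markers of acid-secreting parietal cells, 10 were lower with PEEPA-P5 by log2 difference. Their summed level was 3248 to 4002 CPM in PEEPA-P5 libraries and 3890 to 9962 CPM in vehicle libraries, so the groups overlapped. No marker was at 0 in all libraries. Car2, a carbonic anhydrase that other gastric cells make too, makes up most of that sum in all PEEPA-P5 libraries and in vehicle 1, at 2790.15 to 3543 CPM in PEEPA-P5 libraries and 2399.6 to 2710.4 CPM in vehicle libraries. Atp4a, which encodes the alpha subunit of the acid pump, was at 4.999, 383.7 and 0.269 CPM in PEEPA-P5 1, 2 and 3 and at 365.6, 1620 and 3166 CPM in vehicle 1, 2 and 3. Among the PEEPA-P5 libraries, PEEPA-P5 2 had the most Atp4a and the least Hdac11. It had more Atp4a than vehicle 1, with Hdac11 at 16.7 CPM against 23.4 CPM in vehicle 1. Pepsinogen-making chief cells showed a like pattern, with 5 of 5 tested markers lower with PEEPA-P5 by log2 difference. Their summed levels were 2724 to 10220.5 CPM in PEEPA-P5 libraries and 9496 to 89724 CPM in vehicle libraries, which overlapped too. Markers of other lists were also lower with PEEPA-P5 by log2 difference. They were 11 of 11 enteroendocrine, 8 of 8 endothelial, 9 of 9 fibroblast and 8 of 8 smooth muscle markers. PEEPA-P5 3 had the lowest sum in each of these lists, and the sums of the groups overlapped in each. Fibroblast sums, for example, were 238.2, 359.1 and 29.4 CPM in PEEPA-P5 1, 2 and 3. In vehicle 1, 2 and 3 they were 374.1, 420.6 and 177.2 CPM. Some lists went the other way, with 5 of 6 pit cell, 3 of 5 gland and neck mucous cell and 2 of 2 tested squamous markers higher. The part of parietal, chief or any other cells in the Hdac11 difference was not tested. Markers of skeletal muscle and of neurons and glia, tissues known to express Hdac11, were low throughout, with summed levels of 1.55 to 2.59 CPM in PEEPA-P5 libraries and 2.13 to 2.54 CPM in vehicle libraries for the muscle markers and 1.28 to 5.20 CPM in PEEPA-P5 libraries and 2.82 to 6.37 CPM in vehicle libraries for neurons and glia.

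**Figure D3:**
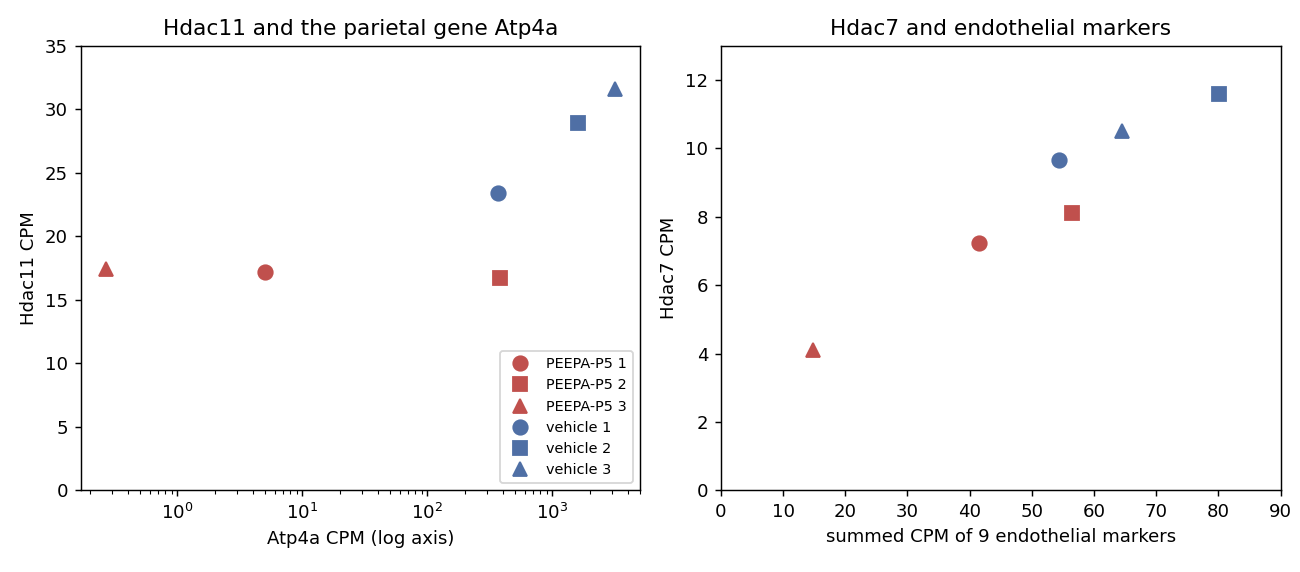
Left, Hdac11 CPM against CPM of the parietal cell gene Atp4a (log axis); right, Hdac7 CPM against the summed CPM of 9 endothelial markers; each point is 1 library, in red for PEEPA-P5 and blue for vehicle. Hdac11 lies between 16.7 and 17.4 CPM in PEEPA-P5 libraries and between 23.4 and 31.6 CPM in vehicle libraries, and Hdac7 is lowest in PEEPA-P5 3, the library with the lowest endothelial sum.

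The nearest annotated protein-coding genes on each side of Hdac11 on chromosome 6 are Fbln2 and Nup210, and no protein-coding gene overlaps it. Overlap with non-coding loci was not checked. Fbln2, an extracellular matrix gene that lies at higher coordinates, had 40, 33 and 4 counts in PEEPA-P5 1, 2 and 3 and 57, 128 and 77 counts in vehicle 1, 2 and 3. Its groups did not overlap, as for 10.7% of all tested genes in the lower direction. The log2 difference of Fbln2 was -1.70 (SE 0.67, edgeR adjusted p = 0.412), in the same direction as Hdac11. Its lowest count was in PEEPA-P5 3, the library with the lowest fibroblast marker sum, and the part of fibroblasts was not tested. Nup210, a nuclear pore gene at lower coordinates, was at 22.2, 19.3 and 7.60 CPM under PEEPA-P5, against 18.8, 20.9 and 14.2 CPM under vehicle, and its groups overlapped. Of the 31-base stretches of Hdac11's coding transcripts in GENCODE M21, 23% also occur in transcripts of other annotated genes, and 20.5% occur in the unclassified locus Gm44002, which is not a row of the deposited table. The length implied by the ratio of counts to FPKM was 2230 to 2240.0 bases over all 6 libraries.

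The genes most like Hdac11 in their log2 CPM over the 6 libraries were Tmx4, a thioredoxin-like membrane protein (r = 0.993), Map2k5, a MAP kinase kinase (0.989), Gbe1, the glycogen branching enzyme (0.986), Rbl2, the retinoblastoma-like protein p130 (0.984), and Tgfbr3, a TGF-beta co-receptor (0.981). Tmx4 was at 16.3, 14.5 and 15.3 CPM under PEEPA-P5, against 20.02, 25.2 and 27.5 CPM under vehicle. Such values are a description over 6 libraries that share their processing, and 55 of 9798 genes reached an r above 0.95. After the group means were subtracted, the genes close to Hdac11 included Tm2d2 (0.993), Ncoa1, a nuclear receptor coactivator (0.989), Vezf1, a zinc-finger factor (0.985), and Slc25a16, a mitochondrial carrier (0.983). Tm2d2 was at 61.6, 59.7 and 62.1 CPM under PEEPA-P5, against 49.8, 56.6 and 61.4 CPM under vehicle. By this measure 56 of 9798 genes reached an r above 0.95. Hdac11 varied little among the PEEPA-P5 libraries, so these values rest mainly on the vehicle libraries. None of the genes named here is another deacetylase.

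Among class IIa genes, Hdac7, which is known for its role in endothelial cells, was lower with PEEPA-P5 to a like extent. It was at 7.23, 8.12 and 4.10 CPM in PEEPA-P5 1, 2 and 3 and at 9.66, 11.6 and 10.5 CPM in vehicle 1, 2 and 3. All PEEPA-P5 libraries lay below all vehicle libraries, and PEEPA-P5 3 was far below the other libraries. The log2 difference was -0.71 (SE 0.27), and -0.46 without PEEPA-P5 3. The 8 tested endothelial markers were all lower with PEEPA-P5 by their log2 difference, and the sum of the 9 was 41.6, 56.5 and 14.9 CPM in PEEPA-P5 1, 2 and 3 and 54.4, 80.1 and 64.4 CPM in vehicle 1, 2 and 3. Hdac7 and this sum were lowest in the same library, PEEPA-P5 3, and highest in the same library, vehicle 2. The same libraries were lowest and highest in the sums of fibroblast markers (9 of 9 lower with PEEPA-P5), smooth muscle markers (8 of 8 lower) and macrophage markers (6 of 7 lower). The part of any of these cell types in the Hdac7 difference was not tested. The length implied by its counts and FPKM was 3629 to 3738 bases with PEEPA-P5 and 3849 to 3883 bases with vehicle, values that depend on how the authors' software divided reads among Hdac7 transcripts.

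Hdac5, a class IIa enzyme that responds to kinase signals, was the most abundant of its class by TPM. It was at 41.9, 46.5 and 50.01 CPM in PEEPA-P5 1, 2 and 3 and 59.9, 61.7 and 42.8 CPM in vehicle 1, 2 and 3. Vehicle 3 lay inside the PEEPA-P5 range, so the groups overlapped. The log2 difference was -0.25 (SE 0.16), -0.40 without vehicle 3 and -0.16 without vehicle 2. Hdac4, a class IIa enzyme known for roles in cartilage and muscle, was at 11.4 ± 0.64 CPM under PEEPA-P5, against 10.2 ± 1.30 CPM under vehicle (SD, n = 3 each). Its groups overlapped, and its log2 difference was 0.16 (SE 0.16), 0.26 without vehicle 1 and 0.08 without vehicle 3.

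In class I, Hdac1, a catalytic subunit of the SIN3, NuRD and CoREST complexes, was at 88.0, 85.9 and 93.6 CPM in PEEPA-P5 1, 2 and 3 and at 82.9, 47.5 and 79.0 CPM in vehicle 1, 2 and 3. The groups did not overlap by CPM, and vehicle 2 stood far below the other 5 libraries. By TPM they overlapped, at 50.3, 50.6 and 47.1 TPM in PEEPA-P5 libraries and 49.2, 31.4 and 42.15 TPM in vehicle libraries. The log2 difference was 0.35 (SE 0.20), and 0.14 without vehicle 2. Hdac2, the close relative of Hdac1 in the same complexes, showed no such gap, at 36.6, 37.6 and 26.0 CPM under PEEPA-P5, against 33.3, 34.6 and 35.3 CPM under vehicle. Here PEEPA-P5 3 was the low library, and the log2 difference was -0.04 with it and 0.11 without it. Hdac1 also shares the most sequence with other loci, since 62.7% of its 31-base stretches occur in transcripts of other genes, and 60.7% occur in the processed pseudogene Gm10093, which has no row in the table. For Hdac2, Hdac3, Hdac6, Hdac8 and Hdac10 that share was 0%, and for Hdac4, Hdac5 and Hdac7 it was at most 1.73%.

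Hdac3, the catalytic subunit of the NCoR/SMRT complex, was at 78.9, 71.4 and 63.5 CPM in PEEPA-P5 1, 2 and 3 and at 66.9, 61.5 and 58.9 CPM in vehicle 1, 2 and 3. The ranges overlapped through PEEPA-P5 3, and the log2 difference was 0.19 (SE 0.11), 0.27 without PEEPA-P5 3 and 0.11 without PEEPA-P5 1. Hdac8, an X-linked class I enzyme that deacetylates the cohesin subunit SMC3, was at 10.9 ± 1.73 CPM under PEEPA-P5, against 10.3 ± 2.12 CPM under vehicle (SD, n = 3 each). Its log2 difference of 0.08 (SE 0.21) changed sign in 6 of 16 alternatives. It was -0.03 without PEEPA-P5 3, -0.03 without vehicle 3, -0.14 without both libraries numbered 3, and -0.01 both with library totals and on log2(TPM + 1). Its implied length was 1994, 2037 and 2383 bases in PEEPA-P5 1, 2 and 3 and 2090, 1987 and 2349 bases in vehicle 1, 2 and 3. It was thus longest in both libraries numbered 3, and the groups overlapped.

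In class IIb, Hdac6, which deacetylates tubulin and helps clear misfolded proteins, was at 13.4, 14.01 and 8.27 CPM in PEEPA-P5 1, 2 and 3 and at 14.6, 14.6 and 15.2 CPM in vehicle 1, 2 and 3. The vehicle libraries lay within counting error of each other, with an SD 0.35 times that expected from counting. By TPM the groups overlapped, with 3.81 TPM in PEEPA-P5 2 and 3.67 TPM in vehicle 3. The log2 difference was -0.31 (SE 0.21), and -0.11 without PEEPA-P5 3. Hdac10, which acts on acetylated polyamines, was at 14.8, 13.3 and 11.8 CPM in PEEPA-P5 1, 2 and 3 and at 11.3, 12.2 and 9.74 CPM in vehicle 1, 2 and 3. Its groups overlapped, and its log2 difference was 0.26 (SE 0.16), and 0.17 without PEEPA-P5 1 or without vehicle 3.

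The genes that work with the deacetylases were followed in 12 lists covering 122 tested genes. Of these, DESeq2 called 1 at an adjusted p of 0.05, and 0 passed that threshold in edgeR's test. Of all 13071 tested genes, DESeq2 called 103 and edgeR 0, so nothing is read from the 1 call. At an unadjusted p under 0.05 there were 7 genes higher and 8 lower with PEEPA-P5, 15 in all or 12.3%, close to the 12.1% of all tested genes. That count was 9 without PEEPA-P5 1, 7 without vehicle 2 and 8 without vehicle 3. The median log2 difference over the 122 genes was 0.03, against -0.00467 over all genes. The adjusted p was 0.412 (edgeR) for each of the 15 genes.

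In the corepressor complexes, 0 of 15 tested SIN3 genes were higher and 1 was lower at an unadjusted p under 0.05, with a median log2 difference of -0.0039. That gene was Brms1l, a SIN3 subunit related to a metastasis suppressor, at 5.90, 7.12 and 5.38 CPM under PEEPA-P5, against 8.17, 8.26 and 11.3 CPM under vehicle. In NuRD, 0 of 12 were higher and 1 lower, with a median of -0.09. The NuRD gene was Mta1, which recruits Hdac1 and Hdac2, at 17.6, 18.3 and 15.8 CPM under PEEPA-P5, against 22.6, 25.4 and 27.9 CPM under vehicle. Both genes had all PEEPA-P5 libraries below all vehicle libraries, which follows from naming only genes whose groups do not overlap. Of 6 tested NCoR/SMRT genes, 0 were higher and 1 was lower. None of the 9 CoREST and 3 MiDAC genes had an unadjusted p under 0.05. The median log2 difference was -0.05 in NCoR/SMRT, -0.09 in CoREST and 0.17 in MiDAC.

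Among the opposing enzymes and readers, 0 of 14 histone acetyltransferase genes and 0 of 4 BET bromodomain genes had an unadjusted p under 0.05, with median log2 differences of 0.03 and -0.0076. Of the 7 sirtuins, the NAD-dependent deacetylases, 1 was higher and 1 lower, with a median log2 difference of -0.13. Sirt7, a nucleolar sirtuin, was at 81.5, 72.9 and 89.2 CPM under PEEPA-P5, against 68.5, 56.4 and 57.8 CPM under vehicle. Sirt2, which like Hdac6 deacetylates tubulin, was at 55.7, 59.3 and 53.7 CPM under PEEPA-P5, against 63.5, 62.9 and 71.9 CPM under vehicle. Their log2 differences were 0.41 (SE 0.12) for Sirt7 and -0.23 (SE 0.10) for Sirt2.

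Class IIa enzymes are held in the cytoplasm by 14-3-3 proteins after phosphorylation by PKD, SIK and CaM kinases. Of 24 tested genes of this group, 3 were higher and 2 lower at an unadjusted p under 0.05, with a median log2 difference of 0.09. Over all tested genes 5.92% were higher and 6.14% lower at that threshold. The higher genes of the list were all of the 14-3-3 family. The other 14-3-3 genes, Ywhab, Ywhag, Ywhah and Ywhaq, did not have an unadjusted p under 0.05 (edgeR). Their log2 differences were 0.31, 0.22, 0.23 and 0.10. Sfn, the 14-3-3 protein of epithelia, was at 338.6, 368 and 453.7 CPM in PEEPA-P5 1, 2 and 3 and at 243.5, 156.5 and 222.6 CPM in vehicle 1, 2 and 3, a log2 difference of 0.90 (SE 0.19). Ywhae was at 532 ± 20.01 CPM under PEEPA-P5, against 451 ± 32.2 CPM under vehicle, and Ywhaz, whose groups overlapped, at 754 ± 98.3 CPM under PEEPA-P5, against 607 ± 48.8 CPM under vehicle (SD, n = 3 each). Pit cell markers moved with these genes, with 5 of 6 higher with PEEPA-P5 and sums of 140592 to 172093 CPM in PEEPA-P5 libraries and 109730 to 129261 CPM in vehicle libraries, and their part was not tested. The lower genes were both kinases. Prkd3, a protein kinase D, was at 5.18, 6.25 and 4.44 CPM under PEEPA-P5, against 7.65, 10.6 and 13.2 CPM under vehicle. Sik3, a salt-inducible kinase, was at 17.4, 19.6 and 12.8 CPM under PEEPA-P5, against 19.96, 27.4 and 28.2 CPM under vehicle. Other kinases of the list went both ways, none with an unadjusted p under 0.05 (edgeR). Prkd2, Camk2d, Mark2 and Mark3 had log2 differences of 0.22, 0.21, 0.14 and 0.22. Those of Prkd1, Sik1, Sik2, Camk1, Camk2g, Camk4 and Stk11 were below 0.

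Of 14 genes that share substrates or partners with Hdac6, 1 was higher and 2 lower at an unadjusted p under 0.05, Sirt2 among the lower, with a median log2 difference of 0.04. Hsp90aa1, the inducible cytosolic chaperone that Hdac6 deacetylates, was at 509, 423 and 229 CPM in PEEPA-P5 1, 2 and 3 and at 225, 222 and 220.4 CPM in vehicle 1, 2 and 3. PEEPA-P5 3 thus lay close to the vehicle libraries. Atat1, the acetyltransferase that opposes Hdac6 on tubulin, was at 9.88, 11.4 and 11.8 CPM under PEEPA-P5, against 14.7, 14.4 and 14.4 CPM under vehicle. Of 13 polyamine genes, the pathway of Hdac10's substrates, 2 were higher and 0 lower, with a median log2 difference of 0.15. Smox, spermine oxidase, was at 14.6, 16.1 and 13.5 CPM under PEEPA-P5, against 11.1, 11.3 and 9.35 CPM under vehicle. Sat1, which acetylates spermidine and spermine, was at 82.0, 78.2 and 95.4 CPM under PEEPA-P5, against 68.96, 74.9 and 62.8 CPM under vehicle.

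Of 4 genes tied to the acyl-lysine activity of Hdac11, 1 was lower at an unadjusted p under 0.05, with a median log2 difference of -0.20. It was Shmt1, a cytosolic serine hydroxymethyltransferase, at 14.5, 15.9 and 8.20 CPM under PEEPA-P5, against 16.9, 22.1 and 21.6 CPM under vehicle, with -0.65 as a log2 difference (SE 0.26). Shmt2, its mitochondrial relative and a substrate of HDAC11 in human cells, was at 44.4, 40.9 and 27.6 CPM under PEEPA-P5, against 36.2, 49.4 and 46.2 CPM under vehicle, and its groups overlapped.

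**Figure D4:**
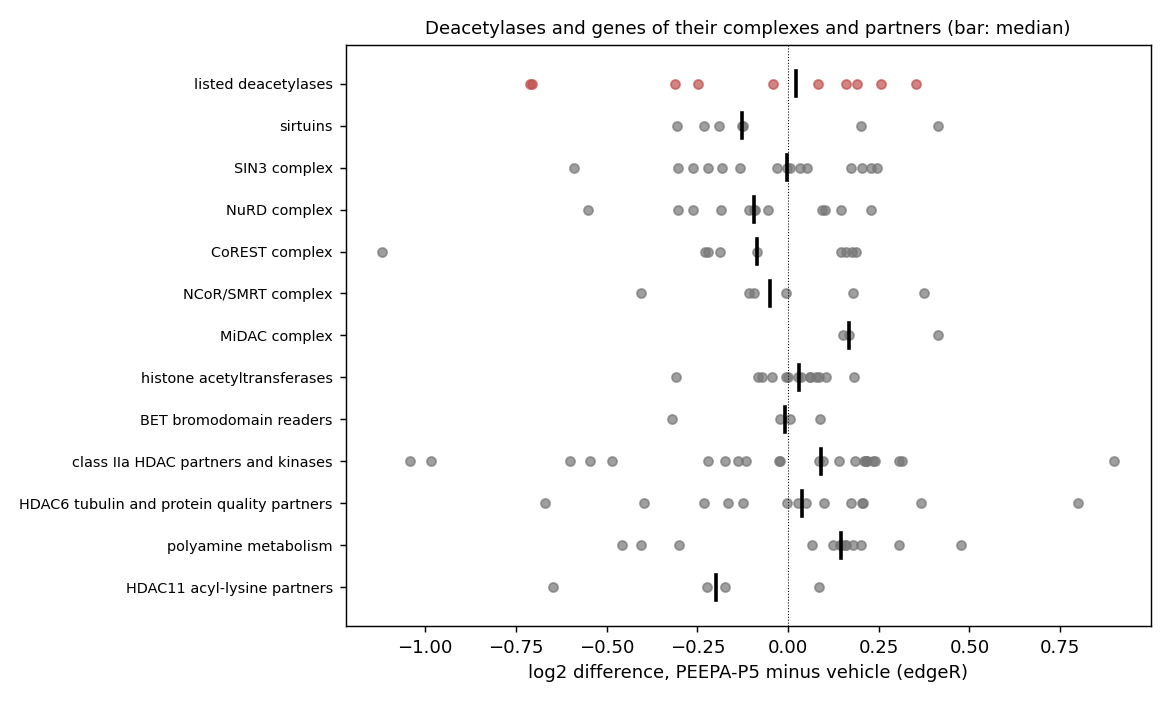
Log2 difference (PEEPA-P5 minus vehicle, edgeR) of the 10 histone deacetylases (red) and of the tested genes in 12 lists of their complexes, opposing enzymes and partners (grey), with the median of each row as a bar. Hdac11 and Hdac7 lie together at -0.71, and the medians of the other rows lie between -0.20 and 0.17.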

How the data were processed

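RNA was extracted with Trizol from frozen antrum epithelium and made into TruSeq libraries, per the labels' protocols. The submitters' processing notes name the build mm9, the aligner Bowtie2 2.2.5 and RSEM 1.2.12. Their settings and strand handling are not stated in the labels or file headers. The authors deposited expected counts, TPM and FPKM per gene and library. The expected counts, 9.82% of them not whole, were rounded and tested with edgeR 4.0.16 (robust quasi-likelihood, TMM factors, filterByExpr, Benjamini-Hochberg adjustment) in R 4.3.3. The filter kept 13071 of 17256 genes. CPM uses TMM-scaled totals. Deposited TPM set the order of levels, and deposited FPKM only the implied length. DESeq2 1.42.0 and limma 3.58.1 were alternatives.

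Members and lists were chosen with earlier results of these data known. Named from each list were up to 4 genes with the smallest unadjusted p under 0.05, a mean of at least 1 CPM and groups that do not overlap. Also named were the 5 genes most correlated with Hdac11 by each measure (mean of at least 5 CPM) and its neighbours. So were markers of cell types that, like Hdac11, were lower with PEEPA-P5. Ywhaz, Shmt2 and Hdac9 were added after their values were seen. Some genes that met these rules are not reported here. Deviations from group means correlated at 0.237, 0.346 and 0.235 in libraries with the same number, and at -0.349 to 0.176 in pairs of unlike number. A replicate block was therefore fitted as an alternative. This pairing comes from the data, not the labels. Deviations within a group are tied to each other, so these values do not establish it. Promoters come from RefSeq on GRCm38.p6 and shared 31-base stretches from GENCODE M21. Intervals cover counting error only.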

Additional observations from a re-analysis of the deposited data

How the results depend on the processing

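At an adjusted p of 0.05, edgeR called 0 genes. DESeq2 called 103. Without vehicle replicate 1 edgeR called 1 gene, Gm42048, so leaving out each library in turn gave 0 to 1. All other settings tried, the replicate block among them, gave 0. At an unadjusted p under 0.05 the count of 1576 became 717 to 2070 when each library was left out in turn, and 1788 with the replicate block. The 15 partner genes became 7 to 16 on leaving out each library in turn, 10 without both libraries numbered 3, and 13 with the replicate block. Their count was 18 with DESeq2. The block changed no call at an adjusted p of 0.05 and no sign among the deacetylases. Library totals, log2(TPM + 1) and log2(TPM + 0.1) moved the median of all genes to -0.09, -0.08 and -0.10 and the split of higher to lower genes to 313 to 1015, 266 to 1029 and 263 to 950.

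Over 16 alternatives the log2 difference kept its sign for 8 of the 10 deacetylases, with ranges of -0.82 to -0.62 for Hdac11, -0.90 to -0.46 for Hdac7, -0.44 to -0.09 for Hdac6, -0.46 to -0.16 for Hdac5, 0.14 to 0.50 for Hdac1, 0.08 to 0.27 for Hdac3, 0.04 to 0.26 for Hdac4 and 0.13 to 0.34 for Hdac10. Hdac2 took the other sign without PEEPA-P5 3, and also without both libraries numbered 3, and Hdac8 took the other sign in 6 of the 16. With the replicate block the difference of Hdac11 was -0.70. For low counts, such as 61 of Hdac7 in PEEPA-P5 3 (95% exact Poisson interval 46.7 to 78.4), counting error limits what can be seen.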
